A study of Mus musculus with 12 samples.

Results

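The genes described here are 37 genes that low oxygen is known to induce or that carry out glycolysis, out of 35879 gene symbols in the deposited count tables. They were chosen by symbol from a named list, and all 37 were found in both tables. They form 3 classes, namely the regulator Hif1a with 14 other hypoxia targets, 6 transporters and regulators of glycolysis, and 16 glycolytic enzymes. RNA was measured by bulk sequencing of total RNA from mouse cells in 12 libraries, 3 in each of 4 groups. All groups started from splenic CD8+ T cells of OT-I mice, whose transgenic T cell receptor recognises an ovalbumin peptide, and all were expanded with anti-CD3e and anti-CD28 antibodies and IL-2. ATRA cells received 5 ng/mL all-trans retinoic acid, a vitamin A metabolite that acts through nuclear receptors, during expansion. CTRL cells received the same volume of DMSO. Both were then cultured for 5 days and kept for 72 hours at 1% O2 with GL261 glioma cells that carried chicken ovalbumin, a co-culture without ATRA or DMSO that the study uses to drive exhaustion. The first pair of groups, ATRA and CTRL, was sorted for live CD45.2+ cells straight after this co-culture. The second pair, ATRA and CTRL, was stimulated again with anti-CD3e antibody for 24 hours before the same sort, and the labels do not say at what oxygen level. Whether a group's libraries stem from different mice or different cultures is not in the labels, and the p-values cover no more than the variation among these libraries.

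When oxygen is plentiful, the prolyl hydroxylases of the Egln family mark the HIF alpha proteins for destruction. In low oxygen HIF alpha persists, pairs with Arnt and binds a short DNA core in the control regions of its target genes. Its targets include genes for blood vessel growth, for removal of mitochondria, for collagen processing, for the Egln enzymes themselves and for most steps of glycolysis. Glycolysis turns glucose into pyruvate and lactate without oxygen, and CD8+ T cells that have been activated through their receptor also raise it in air, under the control of receptor signals, Myc and HIF.

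Total counts were 23558244 to 26111497 in co-cultured libraries and 16286775 to 20114121 in restimulated ones. Levels are given as CPM, counts scaled to a common library size with edgeR's TMM factors within each table, and 3 counts correspond to 0.115 to 0.184 CPM. Co-cultured ATRA replicate 3 stood apart from the others of its group (Pearson correlation of log CPM across genes 0.948 and 0.962, against 0.990 between replicates 1 and 2). It was the highest library of its group in 36 of the 37 genes. Co-cultured CTRL replicate 1 also stood apart from replicates 2 and 3 (0.978 and 0.980, against 0.994). Cd8a and Cd3e were between 149 and 375 CPM in every library, and Cd4 was at most 1.22 CPM. Other CD8 T cell markers differed between the groups. In ATRA cells Cd8b1 was called higher (0.46 on the log2 scale) and Cd2 lower (-0.48) after co-culture. After restimulation Cd3g (0.41), Ptprc (0.42) and Cd2 (0.93) were called higher. The CD8 T cell list then summed to 2520 to 2570 CPM in ATRA and 1940 to 2280 CPM in CTRL libraries. A list of 15 glioma or neural markers, of which 8 are in the co-cultured table, summed to 37.9 to 62.0 CPM in co-cultured ATRA libraries and 126 to 161 CPM in CTRL libraries, most of it Axl. In restimulated libraries, where all 15 are listed, it summed to 105 to 109 CPM in ATRA and 87.5 to 97.4 CPM in CTRL, with Gfap and Olig2 at 0 in all 6. Within this sum 2 markers were called higher in ATRA cells and 1 lower. Thbs1 was at 24.5 to 27.2 CPM in ATRA and at most 0.323 CPM in CTRL libraries. Igfbp7 was at 1.46 to 2.07 CPM in ATRA and 13.3 to 23.3 CPM in CTRL libraries, and also called lower after co-culture (-5.86 on the log2 scale). Lists for CD4 T cells, B cells, monocytes or macrophages, dendritic cells, NK cells and erythroid cells each summed to at most 77.6 CPM in any library, but several differed between the groups. After co-culture the CD4 T cell list summed to 74.4 to 77.6 CPM in ATRA and 40.7 to 46.5 CPM in CTRL libraries, nearly all of it Zbtb7b, and the monocyte list to 19.9 to 24.2 CPM in ATRA and 12.3 to 13.4 CPM in CTRL libraries. The B cell list was at 3.59 to 6.82 CPM in ATRA and 1.01 to 1.72 CPM in CTRL libraries, while the dendritic and NK cell lists were lower, at 4.12 to 7.55 and 0.863 to 1.81 CPM in ATRA and 10.7 to 15.3 and 8.96 to 12.4 CPM in CTRL libraries. After restimulation 4 of the 5 B cell markers were called higher in ATRA cells, with the list at 8.01 to 8.90 CPM in ATRA and 0.786 to 2.58 CPM in CTRL libraries and Ms4a1 at 2.18 to 3.21 CPM in ATRA and 0 in all CTRL libraries. The dendritic cell list, nearly all of it Itgax, was then at 70.3 to 71.5 CPM in ATRA and 19.3 to 53.6 CPM in CTRL libraries, and the monocyte list at 23.3 to 24.2 CPM in ATRA and 11.6 to 17.0 CPM in CTRL libraries. The part of these cells in the results below was not tested. In bulk RNA, fewer cells of a type and less RNA per cell cannot be told apart.

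The hypoxia targets were higher in ATRA cells after co-culture. Of 15 genes, 14 were called higher (adjusted p under 0.05, edgeR's quasi-likelihood test over all genes), 0 lower, and only P4ha1 was not called. Over all 37 genes, 30 were called higher and 0 lower (also 0 lower at an unadjusted p under 0.05 and 0 with DESeq2), against 18.1% of the 12111 genes tested called higher and 33.6% called either way. The median log2 fold change, ATRA over CTRL, was 1.75 for the hypoxia targets and 0.99 for all 37 genes, and 0.01 for all genes tested. In 36 of the 37 the 3 ATRA libraries did not overlap the 3 CTRL libraries, with ATRA above, as was so in 28.4% of all genes tested (57% in either direction).

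Hif1a, the regulator itself, had 607, 605 and 728 CPM in ATRA libraries against 453, 348 and 349 CPM in CTRL libraries. The groups did not overlap, and the log2 fold change was 0.75 ± 0.15 (SE, n = 3 each; adjusted p = 0.0113 by edgeR). Ndrg1, a stress-induced regulator of growth and differentiation, had 326, 373 and 572 CPM in ATRA libraries against 36.2, 36.9 and 37.7 CPM in CTRL libraries. Every ATRA library was thus far above every CTRL library, and the log2 fold change was 3.52 ± 0.23 (adjusted p = 0.000444, edgeR). Zfp395, a DNA-binding zinc finger protein, had 107, 117 and 146 CPM in ATRA libraries and 9.30, 6.43 and 6.54 CPM in CTRL libraries, the largest change among the 37 genes other than Adm (4.05 ± 0.21 on the log2 scale, adjusted p = 0.000207, edgeR). Adm, which encodes the vasodilator peptide adrenomedullin, was almost undetected in CTRL cells: the raw counts were 38, 62 and 177 in ATRA libraries and 0, 0 and 1 in CTRL libraries, a ratio of 304 with a 95% exact interval of 54.0 to 12000 that covers counting error only. Within the ATRA group its counts differed more between libraries than those of the other genes named so far, with most of them in replicate 3.

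Vegfa, the main growth factor for blood vessels, had 91.9, 101 and 171 CPM in ATRA libraries and 29.0, 31.0 and 29.2 CPM in CTRL libraries (log2 fold change 2.03 ± 0.25, adjusted p = 0.0026, edgeR). Ero1a, the oxidase that forms disulfide bonds in the endoplasmic reticulum, had 1008, 1039 and 1603 CPM in ATRA libraries and 378, 330 and 325 CPM in CTRL libraries (1.82 ± 0.20). P4ha2, a catalytic subunit of the prolyl 4-hydroxylase that modifies collagen, had 155, 176 and 272 CPM in ATRA libraries and 49.1, 67.0 and 66.5 CPM in CTRL libraries (1.72 ± 0.24). Its sister subunit P4ha1 had 359, 364 and 370 CPM in ATRA libraries against 338, 289 and 284 CPM in CTRL libraries, closer values that were not called (0.26 ± 0.10, adjusted p = 0.0849, edgeR).

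Among the oxygen sensors, Egln1 had 181, 204 and 311 CPM in ATRA libraries and 91.6, 83.2 and 82.0 CPM in CTRL libraries (1.44 ± 0.21). Egln3, the Egln gene that HIF induces most readily in many cells, had 191, 203 and 248 CPM in ATRA libraries and 43.2, 107 and 105 CPM in CTRL libraries (1.33 ± 0.34). CTRL replicate 1 was the low one here, and every ATRA library was above all CTRL libraries. Bnip3 and Bnip3l, receptors that send mitochondria to autophagy, rose by 1.53 ± 0.19 and 1.27 ± 0.30 on the log2 scale. Bnip3l reached 965 CPM in ATRA replicate 3, against 434 and 527 CPM in the other ATRA libraries and 245 to 295 CPM in CTRL libraries. Kdm3a, a histone H3 lysine demethylase, Mxi1, an antagonist of Myc, and Ankrd37, a small ankyrin repeat protein, rose by 1.75 ± 0.20, 2.05 ± 0.14 and 1.92 ± 0.23 on the log2 scale, with no overlap between the groups.

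**Figure D1:**
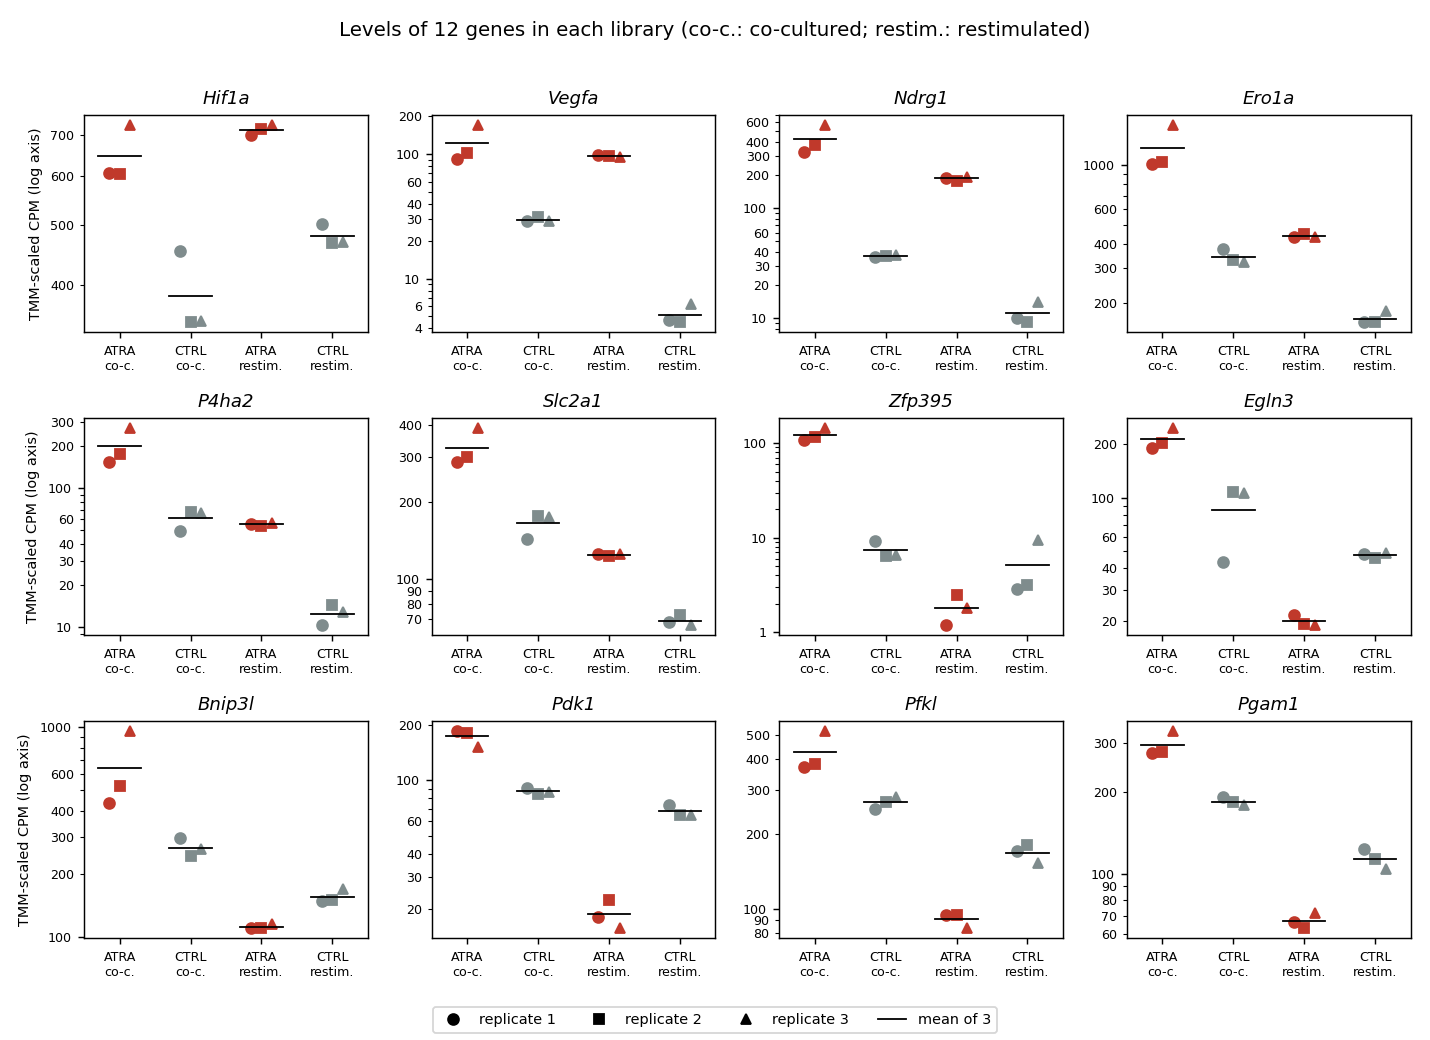
Level of 12 of the 37 genes in each library (TMM-scaled CPM, log axis, scaled within each count table), with the mean of 3 as a black line. The ATRA points lie above the CTRL points in all 12 panels after co-culture. After restimulation they lie above them for Hif1a, Vegfa, Ndrg1, Ero1a, P4ha2 and Slc2a1, and below them for Zfp395, Egln3, Bnip3l, Pdk1, Pfkl and Pgam1.

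Of the 6 transporters and regulators of glycolysis, 4 were called higher in ATRA cells after co-culture. Slc2a1 (GLUT1), the glucose transporter most studied in activated T cells, had 286, 300 and 389 CPM in ATRA libraries and 144, 176 and 175 CPM in CTRL libraries (0.98 ± 0.15 on the log2 scale). Slc2a3 (GLUT3), a glucose transporter of high affinity, had 525, 589 and 921 CPM in ATRA libraries and 344, 263 and 277 CPM in CTRL libraries (1.2 ± 0.23). Pdk1, the kinase that keeps pyruvate out of the mitochondrial citric acid cycle by inhibiting pyruvate dehydrogenase, rose by 0.99 ± 0.11, and it is the gene of the 37 in which ATRA replicate 3 was the lowest of its group. Pfkfb3, which makes the activator of phosphofructokinase, rose by 1.51 ± 0.17. Slc16a3 (MCT4), the lactate exporter of glycolytic cells, had 213, 214 and 226 CPM in ATRA libraries and 169, 205 and 199 CPM in CTRL libraries, and its log2 fold change of 0.19 ± 0.10 was not called. Pfkfb4, a relative of Pfkfb3, was low in both groups, at 4.17 to 5.14 CPM in ATRA libraries and 3.56 to 3.98 CPM in CTRL libraries, and was not called.

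Of the 16 glycolytic enzymes, 12 were called higher in ATRA cells after co-culture and 0 lower, with smaller changes than the hypoxia targets (median log2 fold change 0.73). Together the 16 enzymes took 4.48%, 4.57% and 5.68% of all counts in ATRA libraries and 3.53%, 3.10% and 3.11% in CTRL libraries, so the groups did not overlap. Gapdh alone took 2.98% to 3.81% in ATRA and 2.01% to 2.39% in CTRL libraries. Aldoc, the brain-type aldolase, changed most, with 75.0, 88.8 and 123 CPM in ATRA libraries and 34.2, 20.6 and 22.2 CPM in CTRL libraries (1.90 ± 0.26 on the log2 scale). The muscle-type aldolase Aldoa, which splits fructose bisphosphate, had 2828, 2991 and 4371 CPM in ATRA libraries and 2151, 1738 and 1787 CPM in CTRL libraries (0.84 ± 0.20). At the entry of the pathway, the hexokinases Hk1 and Hk2 rose by 1.03 ± 0.23 and 0.74 ± 0.12, and Gpi1, the isomerase after them, by 1.01 ± 0.18. Hk2 was even across the ATRA libraries, at 452, 456 and 483 CPM, against 238, 300 and 297 CPM in CTRL libraries.

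The 3 subunit genes of phosphofructokinase, the main control point of the pathway, rose by 0.67 ± 0.15 (Pfkl), 0.79 ± 0.17 (Pfkp) and 0.89 ± 0.18 (Pfkm) on the log2 scale. In the lower part of the pathway, Tpi1 (triose phosphate isomerase), Pgam1 (phosphoglycerate mutase), Pkm (pyruvate kinase) and Ldha (lactate dehydrogenase A) rose by 0.62 ± 0.17, 0.70 ± 0.11, 0.80 ± 0.18 and 0.54 ± 0.14. Gapdh, Pgk1 (phosphoglycerate kinase), Eno1 and Eno2 (enolases) had log2 fold changes of 0.70 ± 0.23, 0.50 ± 0.16, 0.38 ± 0.15 and 0.72 ± 0.31, with adjusted p from 0.052 to 0.114 by edgeR, and were not called. Gapdh, the dehydrogenase often used as a constant reference, had 29209, 29859 and 42794 CPM in ATRA libraries and 24354, 19006 and 19216 CPM in CTRL libraries, so its groups did not overlap. With DESeq2, and likewise with scaling by library totals only, Gapdh, Pgk1 and Eno1 were all called higher.

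These calls rest on few libraries. Without CTRL replicate 2, and likewise without CTRL replicate 3, 18 of the 30 calls remained, the same 18 in both cases, with 4 of the 16 enzymes among them (Hk2, Gpi1, Aldoc and Pgam1). Those 18 were called without any 1 of the 6 libraries, and Hif1a, Egln3, Bnip3l and Slc2a3 were among the 12 that were not. Without CTRL replicate 1, Bnip3l, Pfkl and Tpi1 lost their calls and Gapdh, P4ha1 and Pgk1 gained one, which left 30. Without ATRA replicate 2, Egln3, Ldha and Tpi1 lost theirs. Without ATRA replicate 3 there were 30 calls, with Pgk1 gained and Egln3 lost, and without ATRA replicate 1 Pgk1 was gained. Without both libraries that stood apart there were 34, with Eno1, Gapdh, P4ha1 and Pgk1 gained. With the labelled batch as a replicate block, Aldoa, Tpi1 and Ldha were not called (adjusted p = 0.0583, 0.0557 and 0.0746 by edgeR).

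After restimulation the genes no longer moved one way. Of the 36 tested, 15 were called higher in ATRA cells and 14 lower, against 31.8% higher and 30.8% lower of 12783 genes (62.6% either way), and their median log2 fold change was 0.13 against 0.02 for all genes. In 30 of the 36 the ATRA and CTRL libraries did not overlap, with ATRA above in 17, as was so in 68.8% and 35.4% of all genes tested. The 37th, Adm, was too low to test, with raw counts of 9, 17 and 10 in ATRA libraries against 0, 1 and 4 in CTRL libraries. Of the hypoxia targets 8 were higher and 5 lower, of the transporters and regulators 4 were higher and 1 lower, and of the enzymes 3 were higher and 8 lower.

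The hypoxia targets that were higher included those with the largest changes. Vegfa had 97.6, 96.7 and 93.8 CPM in ATRA libraries and 4.66, 4.46 and 6.29 CPM in CTRL libraries (log2 fold change 4.22 ± 0.13, adjusted p = 2.37e-10, edgeR). Ndrg1 had 188, 177 and 193 CPM in ATRA libraries and 10.2, 9.17 and 14.2 CPM in CTRL libraries (4.05 ± 0.14). In both genes the lowest ATRA library was more than 10 times the highest CTRL library. P4ha2 had 55.7, 53.8 and 56.5 CPM in ATRA libraries and 10.3, 14.4 and 12.9 CPM in CTRL libraries (2.14 ± 0.13), and P4ha1, not called after co-culture, had 255, 260 and 253 CPM in ATRA libraries and 174, 143 and 132 CPM in CTRL libraries (0.78 ± 0.09). Ero1a, Ankrd37 and Mxi1 rose by 1.39 ± 0.07, 1.18 ± 0.13 and 0.93 ± 0.13 on the log2 scale. Hif1a had 700, 717 and 727 CPM in ATRA libraries and 502, 468 and 470 CPM in CTRL libraries (0.57 ± 0.06), with no overlap.

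Other hypoxia targets were lower in ATRA cells. Egln3 had 21.7, 19.3 and 18.9 CPM in ATRA libraries and 48.2, 45.5 and 48.5 CPM in CTRL libraries (-1.25 ± 0.10 on the log2 scale), and Egln1 had 45.4, 45.4 and 44.3 CPM in ATRA libraries and 77.6, 64.7 and 67.3 CPM in CTRL libraries (-0.63 ± 0.10). Egln1 and Egln3 were therefore lower in every ATRA library than in any CTRL library. From the list of HIF pathway genes below, Egln2 was also called lower (-0.52, adjusted p = 0.00185, edgeR). Hif1an, a hydroxylase of HIF alpha outside the Egln family, was called higher (0.97, adjusted p = 2.17e-06, edgeR). Neither was called after co-culture (0.35 and 0.06). Bnip3l had 110, 110 and 116 CPM in ATRA libraries and 148, 150 and 170 CPM in CTRL libraries (-0.48 ± 0.07), while Bnip3 was not called (0.20 ± 0.11, adjusted p = 0.15, edgeR). Zfp395 had 1.18, 2.46 and 1.81 CPM in ATRA libraries and 2.86, 3.12 and 9.35 CPM in CTRL libraries (-1.49 ± 0.49). CTRL replicate 3 was far above the other CTRL libraries, and without it the log2 fold change was -0.72 and not called (adjusted p = 0.119, edgeR). Zfp395 also lost its call without ATRA replicate 1 or 3 (adjusted p = 0.0885 and 0.0775). Kdm3a was lower by a small amount (-0.17 ± 0.07), and not called with the replicate block (adjusted p = 0.0748, edgeR).

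**Figure D2:**
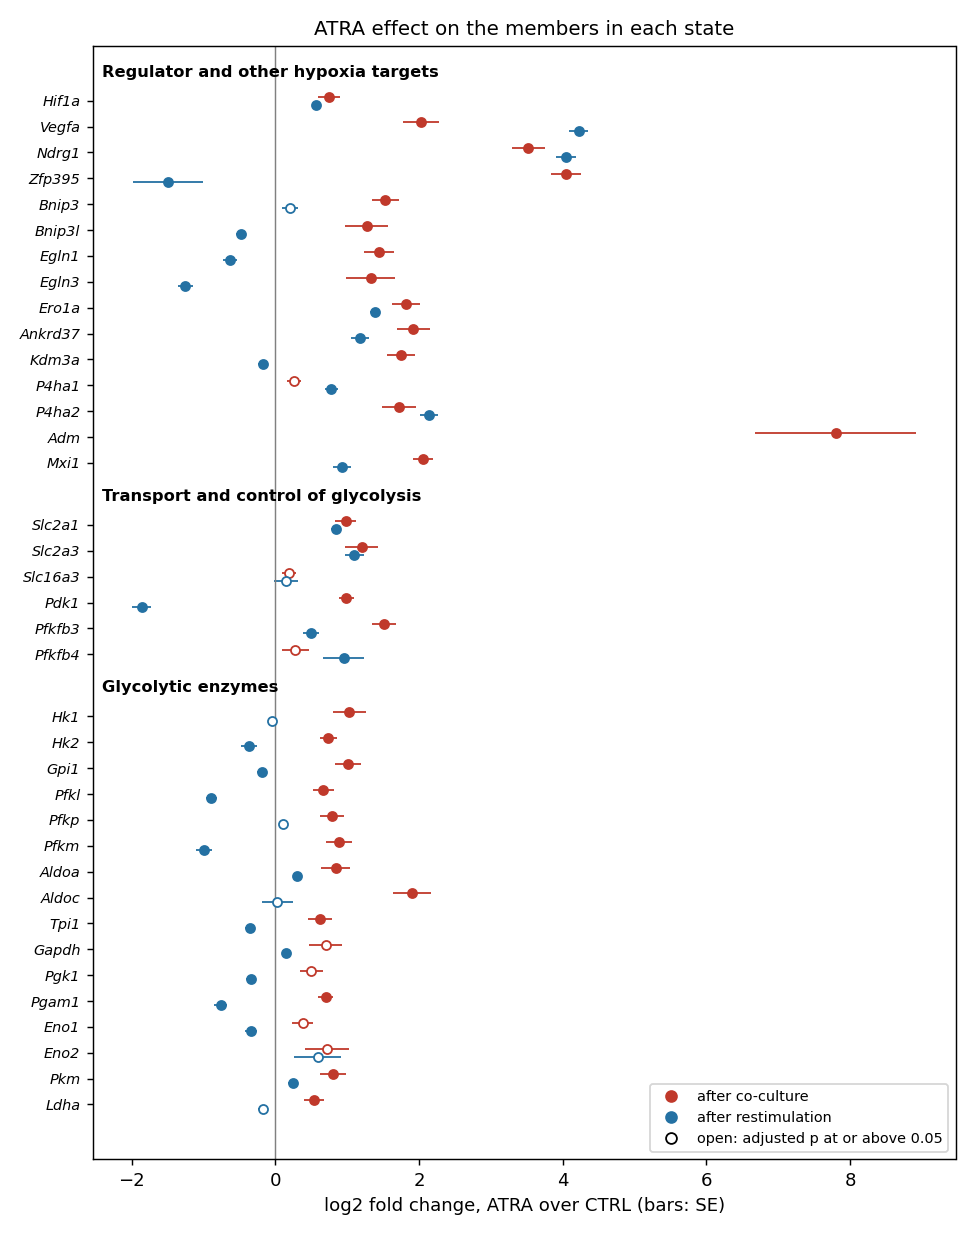
Log2 fold change of ATRA over CTRL for the 37 genes after co-culture (red) and after restimulation (blue), with bars of 1 SE, by class. All red points lie right of 0, while the blue points lie on both sides, from -1.86 for Pdk1 to 4.22 for Vegfa. Adm has no blue point because it was not tested, and its red point rests on 1 count in the CTRL libraries.

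Both glucose transporters stayed higher in restimulated ATRA cells. Slc2a1 had 125, 123 and 126 CPM in ATRA libraries and 68.2, 72.7 and 66.1 CPM in CTRL libraries (0.85 ± 0.07), and Slc2a3 had 241, 245 and 270 CPM in ATRA libraries and 99.5, 107 and 145 CPM in CTRL libraries (1.1 ± 0.13). Pfkfb3 and Pfkfb4 rose by 0.50 ± 0.11 and 0.95 ± 0.28. With limma on log2(TPM + 1) Pfkfb3 was not called (0.34, adjusted p = 0.055), and Pfkfb4 was at 1.71, or at 2.03 on log2(TPM + 0.1). Pdk1 went the other way, with 18.1, 22.3 and 15.7 CPM in ATRA libraries and 73.6, 65.2 and 64.8 CPM in CTRL libraries (-1.86 ± 0.13, adjusted p = 1.48e-07, edgeR). This was the largest decrease among the 36 genes tested. Slc16a3 was not called (0.15 ± 0.17), but was called higher without CTRL replicate 2 (0.36, adjusted p = 0.0325, edgeR).

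The enzymes divided within the pathway. Pfkl had 94.5, 94.9 and 83.7 CPM in ATRA libraries and 171, 181 and 153 CPM in CTRL libraries (-0.89 ± 0.08), Pfkm had a log2 fold change of -0.99 ± 0.11, and Pfkp, the phosphofructokinase subunit with the most RNA, was not called (0.11 ± 0.06). Pgam1 had 66.5, 63.2 and 71.9 CPM in ATRA libraries and 123, 114 and 104 CPM in CTRL libraries (-0.76 ± 0.09). Hk2, Gpi1, Tpi1, Pgk1 and Eno1 were also called lower, with log2 fold changes of -0.37, -0.19, -0.35, -0.34 and -0.34, and of these the libraries of Hk2 overlapped. Aldoa, Pkm and Gapdh were called higher, by 0.30 ± 0.06, 0.24 ± 0.07 and 0.15 ± 0.06, and Hk1, Aldoc, Eno2 and Ldha were not called. The 16 enzymes together took 2.15%, 2.09% and 2.13% of counts in ATRA libraries and 1.87%, 2.18% and 2.07% in CTRL libraries, and here the groups overlapped. Most of this sum was Gapdh, at 1.48% to 1.53% in ATRA and 1.24% to 1.46% in CTRL libraries. The 15 enzymes without Gapdh took 0.62%, 0.609% and 0.619% in ATRA and 0.631%, 0.725% and 0.646% in CTRL libraries. Those values did not overlap, with ATRA below. Without any 1 library, 14 of the 15 higher calls (all but Gapdh) and 10 of the 14 lower calls (all but Zfp395, Kdm3a, Hk2 and Gpi1) remained. Gpi1 lost its call without any 1 library but CTRL replicate 1, Kdm3a without any ATRA library or CTRL replicate 3, Gapdh without any ATRA library, and Hk2 without ATRA replicate 3 or CTRL replicate 2. Gpi1 was not called with the replicate block either (adjusted p = 0.0578, edgeR). Ldha was called lower without CTRL replicate 1 or with scaling by library totals only (adjusted p = 0.00981 and 0.0449, edgeR). Limma on log2(TPM + 1) called 15 of the genes higher and 10 lower, without Pfkfb3, Zfp395, Kdm3a, Hk2 and Gpi1 and with Pfkp as a gain (0.19, adjusted p = 0.0394).

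Copies of 3 enzyme genes limit their counts. In the restimulated table Pgam1-ps2, a pseudogene copy of Pgam1, held 45% as many counts as Pgam1, at 36.3, 30.1 and 37 CPM in ATRA libraries and 30.9, 55.9 and 52.9 CPM in CTRL libraries, and it has no row in the co-cultured table. The sum of both was 103, 93.3 and 109 CPM in ATRA libraries and 154, 169 and 157 CPM in CTRL libraries, still without overlap. Pgk1-rs7 held 4.32% as many counts as Pgk1 in the restimulated table, and Eno1b 0.745% as many as Eno1. How reads were shared between copies is not given in the sources used here, so the values of Pgam1, above all between states, are uncertain.

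The ATRA comparisons of the 2 states use separate libraries and can be set side by side. Of the genes tested in both, 12 were higher in ATRA cells in both states (Hif1a, Vegfa, Ndrg1, Ero1a, Ankrd37, P4ha2, Mxi1, Slc2a1, Slc2a3, Pfkfb3, Aldoa and Pkm), and 12 were higher after co-culture and lower after restimulation (Zfp395, Bnip3l, Egln1, Egln3, Kdm3a, Pdk1, Hk2, Gpi1, Pfkl, Pfkm, Tpi1 and Pgam1). Among all 11369 genes tested in both, 5.78% were higher in both and 5.51% were higher and then lower. These 2 shares also depend on how many genes were called higher after co-culture. Of all genes called higher there and tested in both, 657 were then higher, 627 lower and 709 not called. For the genes described here the counts were 12, 12 and 5, a similarly even split between higher and lower. Without co-cultured CTRL replicate 2, and likewise without replicate 3, 8 of the 12 genes higher in both remained, and 7 of the 12 higher and then lower. Without any 1 library of either state, 8 of the genes higher in both (Vegfa, Ndrg1, Ero1a, Ankrd37, P4ha2, Mxi1, Slc2a1 and Pfkfb3) and 3 of those higher and then lower (Egln1, Pdk1 and Pgam1) remained. Bnip3, Hk1, Pfkp, Aldoc and Ldha were called higher after co-culture and not called after restimulation. P4ha1 and Pfkfb4 were called higher after restimulation and not after co-culture, and Pgk1 and Eno1 were called lower after restimulation and not called after co-culture. Gapdh was called after restimulation (0.15) and not after co-culture, although its value there was larger (0.70), and with DESeq2 it was called after co-culture and not after restimulation (adjusted p = 0.00383 and 0.0576). The difference of effects was not called for Gapdh or Pfkfb4 (adjusted p = 0.0667 and 0.114, edgeR). Slc16a3 and Eno2 were called in neither state.

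The difference between the ATRA effects, restimulated minus co-cultured, was tested as an interaction over all 12 libraries. It was lower for 24 of the 37 genes and higher for 2, against 25.5% lower and 23.6% higher of 12364 genes (49.2% either way). The 2 higher ones were Vegfa (2.18 ± 0.31, adjusted p = 0.000116, edgeR) and P4ha1 (0.51 ± 0.15). Other than Adm, the largest differences in the other direction were -5.56 ± 0.58 for Zfp395, -2.85 ± 0.18 for Pdk1, -2.58 ± 0.38 for Egln3 and -2.08 ± 0.24 for Egln1. Of the 16 enzymes, 13 had a lower ATRA effect after restimulation, from -0.57 for Pkm to -1.88 for Pfkm, and 0 a higher one. With the replicate block Pkm was not called (adjusted p = 0.0696, edgeR). Without 1 library, 21 of the 24 lower calls always remained, and the others were Pkm, Ankrd37 and Adm. Pkm lost its call without any restimulated ATRA library, restimulated CTRL replicate 2, or co-cultured CTRL replicate 2 or 3. Ankrd37 (-0.75 ± 0.26) lost it without any restimulated library but CTRL replicate 3, and without co-cultured CTRL replicate 1 or 2. Without co-cultured ATRA replicate 3, Ndrg1 and P4ha2 were called higher as well. Aldoa and Gapdh were called lower with DESeq2 (adjusted p = 0.0372 and 0.0353), with scaling by totals only, and without co-cultured CTRL replicate 1 or co-cultured ATRA replicate 1 or 2, as was Aldoa without ATRA replicate 3. With all libraries no difference was called for Hif1a, Ndrg1, Ero1a, P4ha2, Slc2a1 and Slc2a3, with values of -0.19 ± 0.16, 0.53 ± 0.28, -0.44 ± 0.22, 0.41 ± 0.29, -0.13 ± 0.18 and -0.11 ± 0.30. Without both libraries that stood apart, Hif1a (-0.22) and Ero1a (-0.24) were called lower (adjusted p = 0.0207 and 0.0236, edgeR), and Ndrg1 and P4ha2 higher. Ero1a was also called lower without co-cultured ATRA replicate 1 (-0.56, adjusted p = 0.0442, edgeR). Ndrg1 was also called higher with scaling by totals only or without restimulated CTRL replicate 3. State, batch set and deposited table change together in this test and cannot be told apart.

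The promoter windows of 4 genes are shown because 2 of them (P4ha2 and Ero1a) were higher in ATRA cells in both states and the other 2 (Pdk1 and Egln3) were higher after co-culture and lower after restimulation. Each window runs from 250 bases before to 50 bases after a transcript start in RefSeq on build GRCm38.p6, an older build than the mm39 of the deposited counts, and is written 5′ to 3′ on the strand of the gene. Capitals mark ACGTG or GCGTG, the 5-letter cores that HIF can bind, on either strand (read as CACGT or CACGC on the other strand).
P4ha2, chr11:54100674-54100973, plus strand: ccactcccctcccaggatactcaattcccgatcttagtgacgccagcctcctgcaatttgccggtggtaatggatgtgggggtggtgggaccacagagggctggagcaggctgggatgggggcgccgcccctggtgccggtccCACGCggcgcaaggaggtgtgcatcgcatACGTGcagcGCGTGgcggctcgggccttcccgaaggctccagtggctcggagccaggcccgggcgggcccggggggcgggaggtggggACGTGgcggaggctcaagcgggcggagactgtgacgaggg
Ero1a, chr14:45318523-45318822, minus strand: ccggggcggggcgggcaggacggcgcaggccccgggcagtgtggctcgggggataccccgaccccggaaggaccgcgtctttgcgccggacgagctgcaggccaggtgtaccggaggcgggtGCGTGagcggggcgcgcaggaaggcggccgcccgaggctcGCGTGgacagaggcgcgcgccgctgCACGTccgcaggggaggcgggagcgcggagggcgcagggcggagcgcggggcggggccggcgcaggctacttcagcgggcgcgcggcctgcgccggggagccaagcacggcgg
Pdk1, chr2:71872974-71873273, plus strand: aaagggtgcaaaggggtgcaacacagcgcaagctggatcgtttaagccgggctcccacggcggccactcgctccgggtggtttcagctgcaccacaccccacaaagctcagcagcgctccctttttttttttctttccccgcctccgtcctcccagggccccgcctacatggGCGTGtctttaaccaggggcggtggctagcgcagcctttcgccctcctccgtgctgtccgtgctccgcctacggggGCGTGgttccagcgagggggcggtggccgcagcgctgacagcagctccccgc
Egln3, chr12:54203825-54204124, minus strand: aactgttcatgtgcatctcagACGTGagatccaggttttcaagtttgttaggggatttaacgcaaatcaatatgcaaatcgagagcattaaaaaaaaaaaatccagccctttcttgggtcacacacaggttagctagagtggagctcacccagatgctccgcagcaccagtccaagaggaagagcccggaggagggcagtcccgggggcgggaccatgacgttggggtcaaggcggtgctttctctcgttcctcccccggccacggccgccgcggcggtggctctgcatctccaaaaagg
The P4ha2 window holds 4 such cores, the Ero1a window 3, the Pdk1 window 2 and the Egln3 window 1. These 4 genes were picked as examples, and their order does not stand for the sets. Among other genes higher in both states, the Ankrd37 window holds 4 cores and the Vegfa windows 0 and 2. Among other genes higher and then lower, the Pgam1 window holds 3 cores and the Gpi1 window 0. Pdk1 has another window in the table, at a second transcript start, which holds 0 cores, so the one shown is the one with more. Windows were found for 33 of the 37 genes, 51 windows in all, and 76.5% of them hold at least 1 core, against 43.8% of all 32851 windows in the table. Windows of these genes also hold more G and C (median 62.3% against 52.7%), and among windows with at least 60% G or C the shares with a core were 90% of 30 and 69.2% of 9690. Of the genes higher in both states, 10 of 10 with a window hold a core in at least 1 window. Of those higher and then lower, 8 of 10 do, against 46.7% of all 27025 genes. ACGTG itself is in 10 and 5 of them, against 21.8% of all genes, and the difference between the sets was not tested. These shares per gene were matched neither for G and C nor for windows per gene, with 51 windows for 33 genes here and 32851 for 27025 in all. CACGTG, which overlaps ACGTG and is also the core that Myc binds, is in 9.8% of the windows of these genes and 7.15% of all windows. Counted per gene, it is in 15.2% of the 33 genes and 8.09% of all genes. A match describes the letters in this window and shows no binding.

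Nearly all of these genes were lower after restimulation than after co-culture. The interaction is by definition also the change in ATRA cells minus that in CTRL cells. For the 24 genes called lower by the interaction test, the change was therefore more negative in ATRA cells than in CTRL cells. Among these, Adm and Pfkm did not fall in CTRL cells (2.37 and 0.15 on the log2 scale, neither called). In ATRA cells 34 of 37 were lower after restimulation than after co-culture and 0 higher (also 0 higher at an unadjusted p under 0.05 and with DESeq2), against 31.5% lower, 29.8% higher and 61.3% called either way of 12364 genes, with a median log2 fold change of -1.75 against -0.03 for all genes. In CTRL cells 29 were lower and 0 higher (0 also at an unadjusted p under 0.05 and with DESeq2), against 16.6% lower, 15.9% higher and 32.5% either way, with a median of -0.81 against 0.02. The 2 contrasts come from the fit that also gave the interaction and share its libraries, and state, batch set and deposited table again cannot be told apart. The share of counts in the 16 enzymes was 2.09% to 2.15% in restimulated ATRA libraries and 4.48% to 5.68% in co-cultured ATRA libraries. In CTRL cells it was 1.87% to 2.18% in restimulated and 3.10% to 3.53% in co-cultured libraries.

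Among the hypoxia targets, Zfp395 and Egln3 fell most in ATRA cells, with log2 fold changes of -6.18 ± 0.46 and -3.53 ± 0.29, and in CTRL cells the values were -0.63 ± 0.39, not called, and -0.95 ± 0.27. Bnip3 fell in both, with -3.40 ± 0.18 in ATRA cells and -2.06 ± 0.17 in CTRL cells. Vegfa showed the opposite order, with -0.45 ± 0.20 in ATRA cells, not called, and -2.63 ± 0.23 in CTRL cells, a fall that was called. Hif1a was not called in ATRA cells (0.04 ± 0.12) or in CTRL cells (0.23 ± 0.12), but without both libraries that stood apart it was called higher in both (adjusted p = 0.0275 in ATRA and 5.08e-05 in CTRL cells, edgeR). Vegfa was called lower in ATRA cells without co-cultured ATRA replicate 1 or 2 (adjusted p = 0.0136 and 0.0413). Pdk1 had -3.31 ± 0.13 in ATRA cells and -0.46 ± 0.12 in CTRL cells, and Slc16a3 -2.25 ± 0.16 in ATRA cells and -2.20 ± 0.16 in CTRL cells, all of them called. All 16 enzymes fell in ATRA cells, from -1.14 for Pkm to -3.97 for Aldoc, and 14 of 16 in CTRL cells, where Hk1 and Pfkm were not called (-0.43 ± 0.18 and 0.15 ± 0.15). Hk1 was called lower in CTRL cells without co-cultured ATRA replicate 1 or 3 (adjusted p = 0.0368 and 0.00015, edgeR), which changes the estimate of spread and not the CTRL libraries. Egln1 and Kdm3a, not called in CTRL cells, were also called lower there without ATRA replicate 3 (-0.39 and -0.34, adjusted p = 0.00159 and 0.00369, edgeR), and all 3 were without both libraries that stood apart. Pfkfb4 was called lower without restimulated CTRL replicate 2 (-0.76, adjusted p = 0.0468), and Hif1a higher without co-cultured CTRL replicate 1 (0.36, adjusted p = 0.0196). In CTRL cells, Egln3, Eno2, Pgk1 and Bnip3l lost their calls without certain CTRL libraries. Egln3 did so without co-cultured replicate 2 or 3 or restimulated replicate 1 or 2, Eno2 without co-cultured replicate 2 or 3 or restimulated replicate 1 or 3, Pgk1 without co-cultured replicate 1 or restimulated replicate 1 or 3, and Bnip3l without restimulated replicate 1. Zfp395 was called lower in CTRL cells without restimulated CTRL replicate 3 (-1.41, adjusted p = 0.00372, edgeR). With scaling by library totals only, Hif1a was called higher in both treatments and Pdk1 lost its call in CTRL cells.

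**Figure D3:**
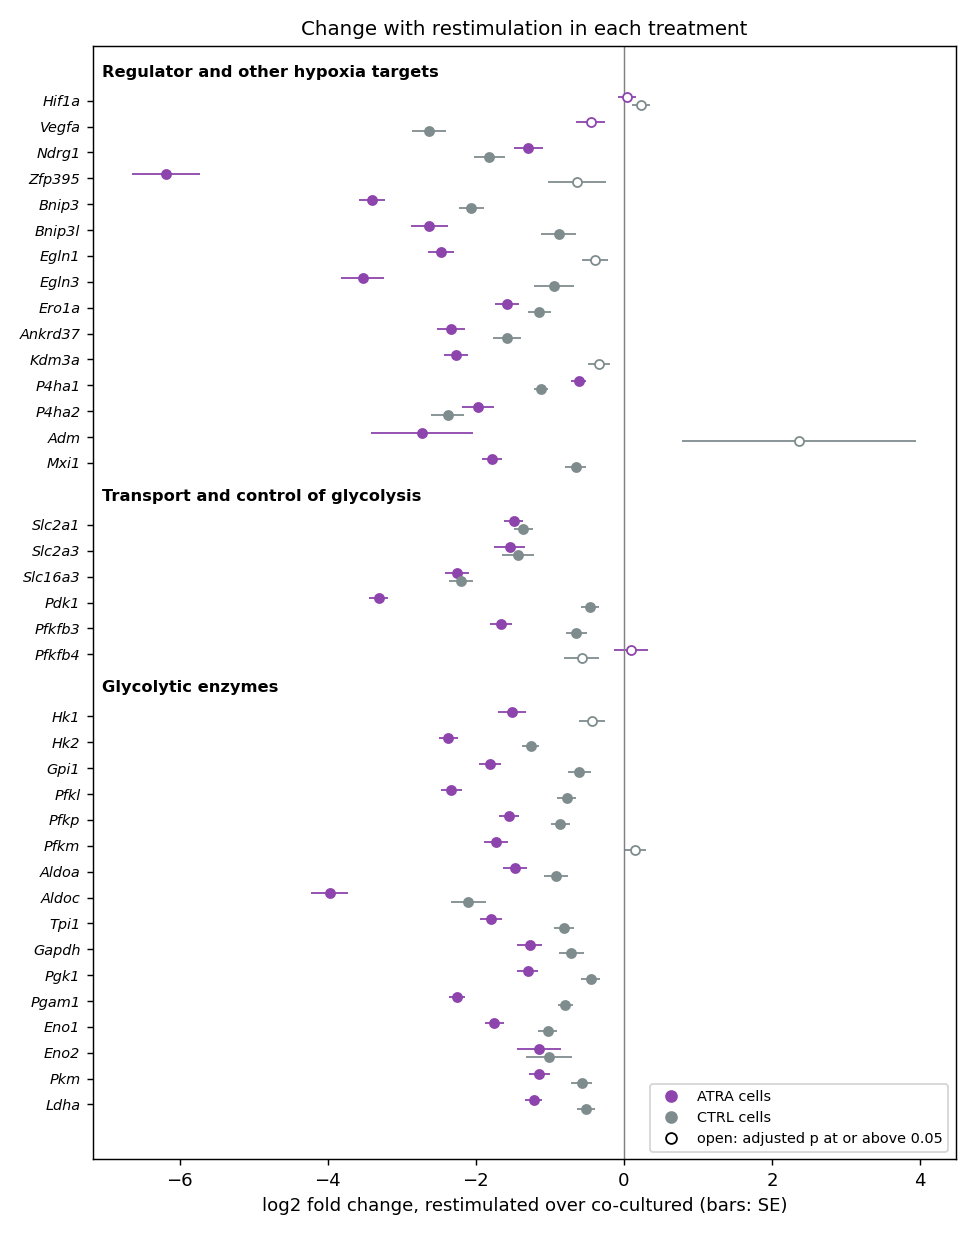
Log2 fold change of restimulated over co-cultured cells for the 37 genes, in ATRA cells (purple) and CTRL cells (grey), with bars of 1 SE. Most points lie left of 0, with medians of -1.75 in ATRA and -0.81 in CTRL cells. The Adm point of CTRL cells rests on 1 count in the co-cultured and 5 counts in the restimulated libraries.

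TPM, which corrects for transcript length and so allows levels of different genes to be compared, was deposited for the restimulated libraries. By mean TPM, Gapdh led the 37 genes in both groups, at 13240 ± 41.0 TPM in ATRA and 11660 ± 654 TPM in CTRL libraries (SD, n = 3 each). Aldoa was at 1349 ± 7.28 TPM in ATRA and 999 ± 37.5 TPM in CTRL libraries, and Eno1 at 1027 ± 19.8 TPM in ATRA and 1358 ± 162 TPM in CTRL libraries, so the order of these enzymes differed between the groups. Vegfa ranked 13th of the 37 in ATRA cells, at 206 ± 12.8 TPM, and 30th in CTRL cells, at 11.6 ± 3.13 TPM. Ndrg1 ranked 16th at 102 ± 10.6 TPM in ATRA and 32nd at 5.73 ± 1.88 TPM in CTRL cells. Pdk1 ranked 29th at 20.4 ± 4.29 TPM in ATRA and 17th at 66.7 ± 3.47 TPM in CTRL cells.

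Within enzyme families the makeup shifted in some and not in others. Of the summed TPM of the 3 phosphofructokinase genes, Pfkp made up 85.4% ± 1.29 in ATRA and 74.8% ± 1.41 in CTRL libraries, and Pfkl 11.4% ± 0.763 in ATRA and 19.4% ± 1.22 in CTRL libraries, with no overlap for either. Of Egln1 and Egln3 together, Egln1 made up 67.2% ± 1.45 in ATRA and 57.4% ± 2.01 in CTRL libraries. Of P4ha1 and P4ha2 together, P4ha2 made up 23.5% ± 0.404 in ATRA and 11.4% ± 4.26 in CTRL libraries. The shares of Hk1 among the hexokinases (74.5% ± 0.944 in ATRA and 72.0% ± 3.22 in CTRL) and of Slc2a3 among the glucose transporters (84.2% ± 0.346 in ATRA and 82.0% ± 3.45 in CTRL) overlapped, and Aldoa and Eno1 made up over 99% of their pairs in every library.

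**Figure D4:**
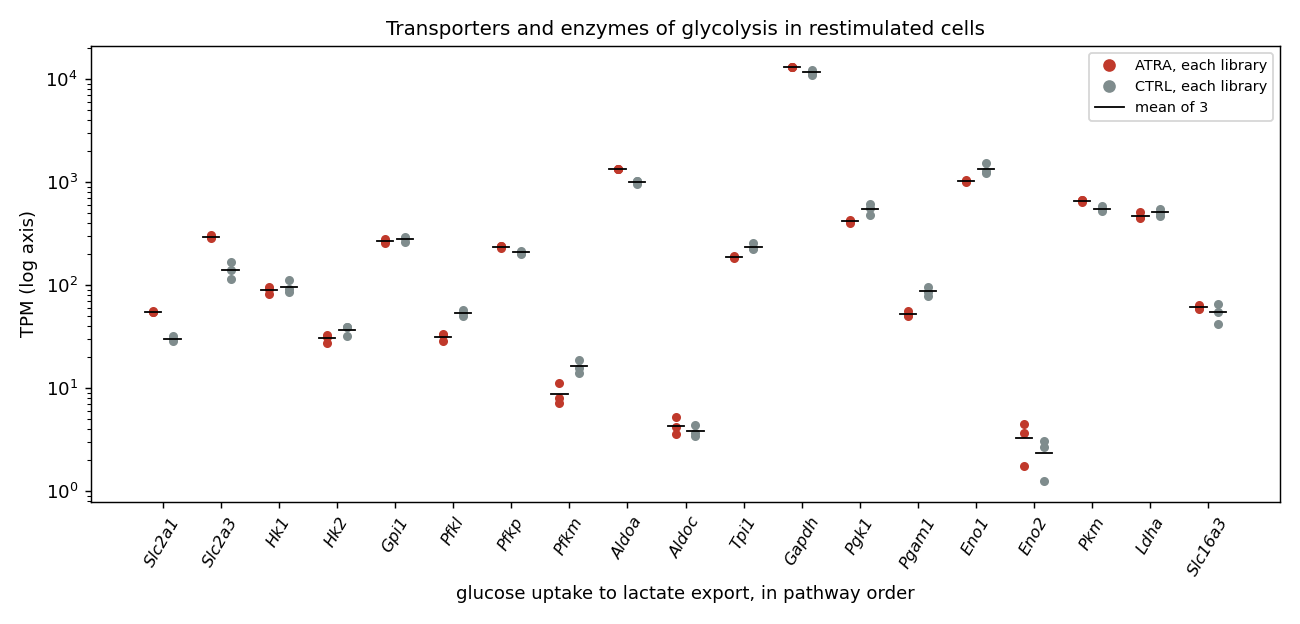
TPM (log axis) of the glucose transporters, the 16 glycolytic enzymes and the lactate exporter Slc16a3 in each restimulated library, in pathway order, with the mean of 3 as a black line. The ATRA points lie above the CTRL points for Slc2a1, Slc2a3, Pfkp, Aldoa, Gapdh and Pkm, and below them for Pfkl, Pfkm, Tpi1, Pgk1, Pgam1 and Eno1.

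A list of 17 further genes holds the other HIF subunits, their partners and the proteins that degrade or restrain them. Of these, 3 were higher in ATRA cells and 2 lower after co-culture (median log2 fold change 0.16), against 18.1% higher and 15.5% lower of all genes tested, a share near the background. Of 16 tested after restimulation 10 were higher and 1 lower (median 0.39), against 31.8% and 30.8% of all genes. Epas1, which encodes HIF-2 alpha, had 311, 272 and 290 CPM in restimulated ATRA libraries and 64.6, 59.4 and 66.0 CPM in CTRL libraries (2.20 ± 0.08, adjusted p = 4.09e-10, edgeR). After co-culture its ATRA libraries ranged widely, at 9.40, 59.4 and 240 CPM against 18.2, 22.3 and 23.3 CPM in CTRL libraries, and it was not called (adjusted p = 0.113, edgeR). Cited2, which competes with HIF for its coactivator, had 44.5, 40.6 and 41.7 CPM in restimulated ATRA libraries and 16.5, 18.3 and 19.3 CPM in CTRL libraries (1.23 ± 0.11), and was not called after co-culture (-0.29 ± 0.18). Arnt2, a relative of the HIF partner Arnt, was higher after restimulation by 2.37 ± 0.21. After co-culture Hif3a, a HIF alpha relative that can dampen HIF signals, had 3.90, 4.63 and 4.10 CPM in ATRA libraries and 1.49, 1.01 and 0.845 CPM in CTRL libraries (1.92 ± 0.29). The parts of the ligase that removes HIF alpha did not move one way after co-culture. Eloc and Cul2 were lower (-0.58 and -0.51) and Vhl was higher (0.88, adjusted p = 0.0357, edgeR). Rbx1 and Elob were not called (-0.03 and 0.13).

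Of a further list of 36 hypoxia-induced genes, 23 of 32 tested were higher in ATRA cells after co-culture and 2 lower (median log2 fold change 1.1), against 18.1% and 15.5% of all genes. After restimulation 18 of 31 were higher and 5 lower (median 0.50), against 31.8% and 30.8% of all genes. Hilpda, which curbs fat breakdown at lipid droplets, was higher in both states, with 187, 190 and 258 CPM in ATRA against 44.2, 38.7 and 36.5 CPM in CTRL libraries after co-culture, and 178, 188 and 200 CPM in ATRA against 25.2, 26.7 and 37.7 CPM in CTRL libraries after restimulation. Gbe1, the branching enzyme of glycogen synthesis, was higher after co-culture, with 271, 312 and 474 CPM in ATRA and 48.7, 43.8 and 37.7 CPM in CTRL libraries. After restimulation it had 58.5, 64.6 and 56.1 CPM in ATRA and 54.6, 51.8 and 81.7 CPM in CTRL libraries and overlapped, and the difference between the effects was -3.10 (adjusted p = 1.31e-05, edgeR). Selenbp1, a selenium-binding protein, had 99.5, 142 and 316 CPM in ATRA and 1.68, 1.31 and 0.955 CPM in CTRL libraries after co-culture (7.14 ± 0.57), and a smaller effect after restimulation (1.85 ± 0.58; difference -5.31, adjusted p = 0.000299). After restimulation Flt1, a receptor for Vegfa, had 14.1, 14.1 and 14.9 CPM in ATRA libraries and at most 0.183 CPM in CTRL libraries, and Hmox1, the haem-degrading enzyme, rose by 1.47 ± 0.12. The co-culture value of Hmox1 was 1.65 ± 0.55 and not called (adjusted p = 0.0573, edgeR). Its difference of effects was not called either (-0.2, adjusted p = 0.809, edgeR).

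Of 14 tested genes listed as isozymes and further transporters of glycolysis, 2 were higher and 5 lower in ATRA cells after co-culture (median log2 fold change -0.36), and 4 were higher and 4 lower after restimulation (0.09). The shares called higher, and the share lower after restimulation, are near those of all genes (18.1% higher and 15.5% lower after co-culture, 31.8% and 30.8% after restimulation). Eno3, the muscle enolase, was lower in both states, with 20.7, 20.2 and 14.4 CPM in ATRA against 41.3, 47.4 and 46.9 CPM in CTRL libraries after co-culture, and a log2 fold change of -1.96 ± 0.20 after restimulation. Galm and Pfkfb1 were also lower in both states, at -1.91 and -1.69 after co-culture and -1.61 and -1.20 after restimulation. Pgam5 was higher after restimulation by 1.13 ± 0.12, and Slc16a1 (MCT1), a transporter of lactate, lower (-0.71 ± 0.08). Despite its name and place in the list, Pgam5 is a mitochondrial phosphatase and not an enzyme of glycolysis, and it is among the 4 higher.

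Of 30 tested genes of pyruvate oxidation and the citric acid cycle, 2 were higher and 13 lower in ATRA cells after co-culture (median -0.32), against 18.1% and 15.5% of all genes, and 4 higher and 17 lower after restimulation (-0.31), against 31.8% and 30.8%. Pdp1, the phosphatase that undoes what Pdk1 does to pyruvate dehydrogenase, changed in the direction opposite to Pdk1 in both states. It had 25.2, 21.2 and 19.2 CPM in ATRA and 44.9, 44.6 and 43.0 CPM in CTRL libraries after co-culture (-1.01 ± 0.13), and 80.3, 77.9 and 83.4 CPM in ATRA and 39.4, 35.2 and 40.8 CPM in CTRL libraries after restimulation (1.07 ± 0.09), a difference of 2.08 (adjusted p = 6.2e-07, edgeR). Dld and Dlst, subunits of the mitochondrial dehydrogenase complexes, were lower after co-culture (-0.84 and -0.75). After restimulation Dlst was called higher (0.32, adjusted p = 0.00713, edgeR) and Dld was not called (0.17), and the difference of effects was called for both (1.06 for Dlst and 1.02 for Dld). Pdk3 and Mdh1 were lower after restimulation (-0.82 and -0.57) and not called after co-culture (-0.25 and -0.16). Pdk3, and Pdk2, which was lower after co-culture (-1.40, adjusted p = 0.0201, edgeR), inhibit pyruvate dehydrogenase as Pdk1 does. The genes counted as lower therefore include inhibitors of pyruvate oxidation. Of the 10 genes listed for the pentose phosphate pathway, which branches off glycolysis, 1 was higher (Pgls, 0.46 ± 0.08) and 1 lower (G6pdx, the entry enzyme, -0.52 ± 0.14) after co-culture. After restimulation 8 of the 10 were lower, against 30.8% of all genes, with log2 fold changes of -1.54 ± 0.13 for Prps2, -0.83 ± 0.08 for Tkt (transketolase) and -0.65 ± 0.06 for Prps1. Prps1 and Prps2, both among the 8, use a product of the pathway and are not enzymes of the pathway itself.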

How the data were processed

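Per the labels, total RNA of sorted cells was made into libraries with a stranded total RNA kit. The authors deposited whole-number counts per gene symbol, 1 table for co-cultured and 1 for restimulated libraries, and TPM for the restimulated libraries. The headings of the TPM table are not those the labels give for it but those of the co-cultured count table. The labels assign it to the restimulated libraries, and its values were used as unnumbered replicates of those groups. As a check, each of its 6 columns, as deviations of log2 values from the mean of the 6 over 7222 genes, correlated highest with the restimulated count column of the same treatment and number (0.954 to 0.975), against -0.211 to 0.328 with the co-cultured column of the same treatment and number. The submitters' processing notes name Salmon 1.10.3, STAR 2.7.11b, DESeq2 1.42.1, cutadapt 5.0 and build mm39. Not given in the sources used here are their roles, the annotation and the strand setting, so reads of overlapping genes may be shared. The deposited co-cultured count table lists only rows with a sum of at least 10. Where symbols repeated (32 in the restimulated table), the row with the largest total was kept.

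The 37 genes and all lists were chosen with earlier results of these data known. All 37 were named, and of each further list the counts and at most the 3 called genes with the smallest p in each ATRA comparison. Vhl, Rbx1 and Elob were named as well, as parts of the same ligase as Eloc and Cul2. Egln2 and Hif1an were named beside Egln1 and Egln3, and Pdk2 beside Pdk3.

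The count models used edgeR 4.0.16 under R 4.3.3 (TMM, filterByExpr by group, robust quasi-likelihood F test, Benjamini-Hochberg adjustment over all genes tested, calls at an adjusted p under 0.05). Each ATRA comparison with CTRL took the 6 libraries of a state. The interaction and the restimulation changes came from 1 fit of all 12 libraries and the symbols found in both tables. SE was computed from the coefficient and its F. Alternatives were DESeq2 1.42.0, other scalings and filters, limma 3.58.1 on log2(TPM + 1) and log2(TPM + 0.1), each library left out, and both libraries that stood apart left out. The fits were tested on simulated data.

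Per the labels, same-numbered ATRA and CTRL libraries of a state share a batch, so the numbers pair them. Their deviations from the group means correlated at 0.13, -0.06 and 0.07 after co-culture and -0.03, -0.10 and 0.04 after restimulation. No pair of libraries was alike within sampling noise (chi-square per degree of freedom at least 3.76).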

Additional observations from a re-analysis of the deposited data

Results flagged for a closer look

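For 26 of the 37 genes the ATRA effect differed between the states by the interaction test of edgeR (adjusted p under 0.05; restimulated minus co-cultured, log2 scale). Among all 12364 genes tested this was so for 49.2%, and state, batch set and deposited table cannot be told apart.

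The effect was larger after restimulation for Vegfa (2.18) and P4ha1 (0.51). Among the other hypoxia targets the difference was -5.56 for Zfp395, -1.34 for Bnip3, -1.75 for Bnip3l, -2.08 for Egln1, -2.58 for Egln3, -0.75 for Ankrd37, -1.93 for Kdm3a and -1.13 for Mxi1. For Adm it was -5.10, a fitted value that depends on 1 count in the co-cultured CTRL libraries and ranged from -6.78 to -3.60 with 1 library left out. Zfp395 was at -4.77 without restimulated CTRL replicate 3. Among the regulators it was -2.85 for Pdk1 and -1.02 for Pfkfb3.

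Among the enzymes the difference was -1.08 for Hk1, -1.11 for Hk2, -1.21 for Gpi1, -1.56 for Pfkl, -0.69 for Pfkp, -1.88 for Pfkm, -1.87 for Aldoc, -0.98 for Tpi1, -0.85 for Pgk1, -0.72 for Eno1, -0.57 for Pkm and -0.71 for Ldha. Pgam1, at -1.46, has a copy listed in the restimulated table alone.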

How the results depend on the processing

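After co-culture, with 1 library left out in turn, the genes called higher in ATRA cells numbered 18 to 31 of 37 and all genes called 1613 to 5617. Without both libraries that stood apart, the counts were 34 and 7980 (4071 with all libraries). After restimulation 14 to 16 were called higher and 10 to 15 lower with 1 library left out. Genes with a larger ATRA effect after restimulation numbered 2 to 4 with 1 library left out and 4 without both that stood apart. With restimulation, 1 gene was called higher in ATRA cells and 1 in CTRL cells, both with scaling by library totals only and without both libraries that stood apart. With 1 library left out there were 0 in ATRA cells and 0 to 1 in CTRL cells. In each case the gene was Hif1a. Scaling by totals moved the median of all genes in ATRA cells to 0.13, against -0.03. The cause of these shifts was not tested.

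With the replicate block, 27 genes were called higher after co-culture (2892 of all genes), 15 higher and 12 lower after restimulation (7751 of all), and 23 lower in the interaction. It changed no call but those named in the text. No paired analysis was possible for the restimulation changes because batches do not cross the states.

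The values whose sign changed were not called with all libraries. With 1 library left out, they ranged after restimulation from -0.03 to 0.36 for Slc16a3 (called at 0.36), -0.07 to 0.0 for Hk1 and -0.05 to 0.15 for Aldoc. In the interaction they ranged from -0.22 to 0.03 for Slc2a1, -0.27 to 0.19 for Slc2a3, -0.22 to 0.18 for Slc16a3 and -0.43 to 0.09 for Eno2. Without both libraries that stood apart they were 0.12, 0.07, 0.07 and 0.25. Slc16a3 was at 0.04 with totals only. Hif1a in ATRA cells ranged from -0.02 to 0.15 with restimulation, and it was called as given above.

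Low counts limit Adm, Zfp395 after restimulation, Pfkfb4 and Eno2.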
